A study of Mus musculus with 4 samples.

Results

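The 9 genes described here encode inhibitory and related receptors of T cells other than the CD28 family, with the ligand CD200 counted among them. The genes are Lag3, Tigit, Havcr2 (the gene of TIM3), Cd160, Cd200, Cd244 (2B4), Cd96, Cd226 (DNAM-1) and Klrg1. They were chosen by name from 22120 gene symbols found in both deposited tables, and each symbol was matched in both. The RNA came from C57BL/6 T cells induced in culture towards regulatory T cells (Treg cells), in 2 libraries labelled MSC KO and 2 labelled WT. MSC is musculin, the product of Msc and a transcription factor of the basic helix-loop-helix class; how the gene was altered is not in the labels. In both groups, sorted naive T cells had been stimulated through CD3 and CD28 by antibodies fixed to the plate (1 µg/ml) for 3 days, with TGF-beta (2 ng/ml) to induce Foxp3. Levels are in FPKM, that is, scaled to transcript length and to the fragments mapped in a library. The authors deposited MSC KO 1 with WT 1 in the first table and MSC KO 2 with WT 2 in the second, and each difference below was taken within a table.

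Inhibitory receptors are induced on T cells by repeated or strong stimulation and dampen signals of the T cell receptor. LAG3 resembles CD4 and binds MHC class II, and TIM3 binds galectin-9 among other ligands. TIGIT, CD96 and CD226 share ligands of the nectin family, chiefly CD155 (Pvr): TIGIT is inhibitory, CD226 is activating, and CD96 has been described in both roles. CD200 is a membrane ligand whose receptor, CD200R1, is inhibitory. CD160 binds HVEM (Tnfrsf14), 2B4 binds CD48, and KLRG1 binds cadherins. Treg cells are known to carry LAG3 and TIGIT as part of their suppressive equipment, and LAG3 also marks type 1 regulatory T cells that make interleukin-10.

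The targeted gene went against the labels, with Msc at 0.331 and 0.939 FPKM in the pair labelled MSC KO and 0.0243 and 0.0178 FPKM in the WT-labelled ones, so every direction below is that of the libraries as labelled. All these values were below 1 FPKM. They stand for about 16.2 and 55.3 estimated fragments in the pair labelled MSC KO and 1.1 in each WT library. In the authors' deposited tables Msc was not tested in the first and not marked significant in the second. Pan-T and CD4 markers (Cd3d, Cd3e, Cd3g, Cd4, Cd5, Cd28) summed to 1109 and 1026 FPKM in the pair labelled MSC KO and 968 and 992 FPKM in WT. Foxp3, which defines Treg cells, was at 2.97 and 7.05 FPKM in the pair labelled MSC KO against 62.8 and 66.0 FPKM in WT. The other listed markers of induced Treg cells did not move alike. Lrrc32 was lower (5.78 and 9.46 FPKM in the pair labelled MSC KO, 23.9 and 26.0 FPKM in WT). Ctla4 was higher (217 and 188 FPKM against 112 and 120 FPKM), and Il2ra overlapped (364 and 307 FPKM against 302 and 317 FPKM). Depth, estimated from the steps between low values, was about 26900000 to 36900000 fragments a library. Summed markers of B cells (at most 7.38 FPKM), myeloid cells (at most 1.20 FPKM), mast cells (at most 0.119 FPKM) and erythroid cells (at most 0.0560 FPKM) were low in every library. Over the 10587 genes tested, the 2 WT libraries lay close to each other (median absolute difference 0.0669 on the log2(FPKM + 1) scale) and the 2 MSC KO-labelled libraries lay farther apart (0.171), nearly as far as each lay from its WT partner (0.196 for MSC KO 1 and 0.193 for MSC KO 2). Separate animals or cultures are not stated in the labels, so p-values cannot be read as covering the spread between animals. Those of the main fit below measure how far the MSC KO minus WT difference disagreed between the 2 tables. They also draw on a prior variance from all genes tested, and the disagreement may be technical. In such bulk RNA, more cells with a transcript and more transcript per cell cannot be told apart.

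Lag3 and Tigit were above WT in both MSC KO-labelled libraries, and Cd200 was higher by an amount that differed between the tables. Cd226 was higher in 1 of the 2 MSC KO-labelled libraries, and Cd96 was not higher or lower in both tables. Cd160 and Havcr2 were low and Cd244 and Klrg1 were at or near 0 in all 4 libraries. A gene was tested where its mean over the 4 libraries was at least 1 FPKM, which held for 5 of the 9 genes. Of these 5, 0 passed an adjusted p of 0.05 in limma with the table as a block, against 0.00945% of all genes tested. That fit left 1 residual degree of freedom and called 1 gene in all, with 3 receptors (Lag3, Tigit and Cd200) at an unadjusted p under 0.05, all of them higher, beside 9.21% of all genes tested at that unadjusted p and higher. In 3 of 5 both MSC KO-labelled libraries lay above both WT libraries (26.6% of all genes tested), and in 0 of 5 below (32.5%). The median difference of the 5 was 0.98 in the fit, against -0.02 over all genes tested. Fits that left out 1 library, with no block, take the spread from the other group alone, so only their differences are given. Without MSC KO 1 they were 1.72 for Lag3, 1.41 for Tigit, 1.31 for Cd200, 1.34 for Cd226 and 0.14 for Cd96. Without MSC KO 2 they were 1.96, 1.73, 0.65, -0.02 and -0.40 in the same order.

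**Figure D1:**
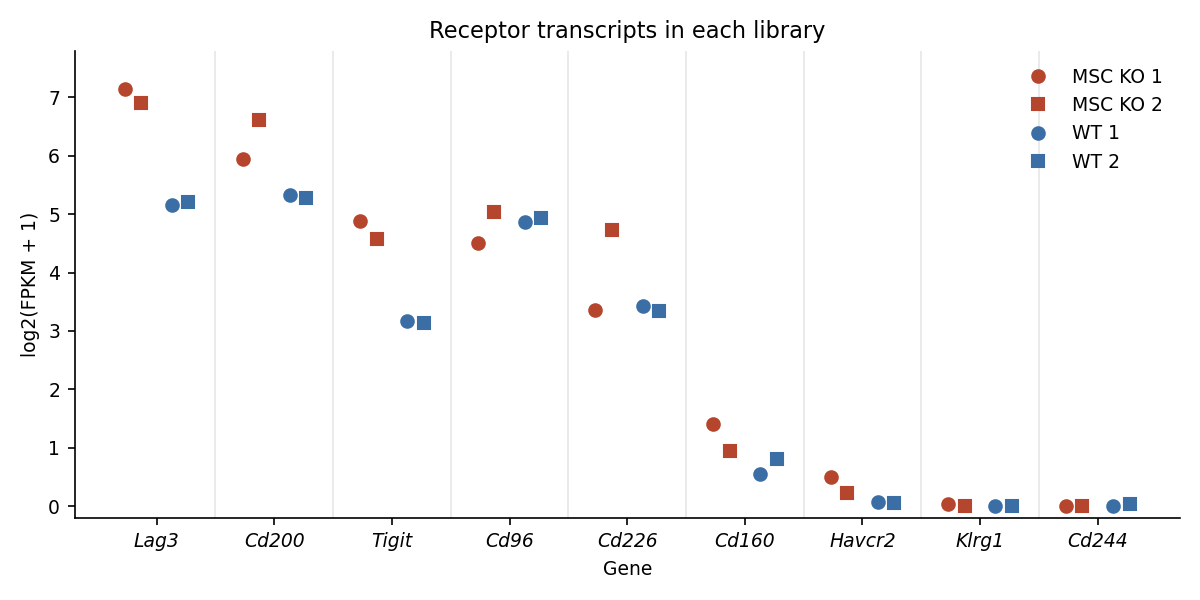
Level of each receptor transcript as log2(FPKM + 1) in each library, 1 point a library, MSC KO-labelled libraries left of WT for every gene. Lag3, Cd200 and Tigit, and at low levels Cd160 and Havcr2, lie above both WT points in both MSC KO-labelled libraries. Cd226 does so in MSC KO 2 alone, as does Cd96 by a smaller margin.

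Lag3, on chromosome 6 (mm9, 124854376 to 124861723), was at 140 FPKM in MSC KO 1 and had 119 FPKM in MSC KO 2, with WT 1 at 34.8 FPKM and WT 2 at 36.1 FPKM. The groups were far apart, and Lag3 was the most abundant of the 9 transcripts in both MSC KO-labelled libraries while Cd200 was in both WT libraries. It was 4.04 times the WT level in the first table and 3.29 times that level in the other. On the log2(FPKM + 1) scale the difference was 1.84 ± 0.12 (standard error, n = 2 libraries a group), which did not pass over all genes (limma, adjusted p = 0.11). Lag3 passed when the table was not used as a block (adjusted p = 0.0278, limma), and narrowly with small RNA genes left out of the fit (0.0495). In the authors' deposited tables, which test 1 library against 1, Lag3 was marked significant in both (q = 0.0118 and 0.0143). Of the genes that the authors' deposited tables tested in both, 0.239% were marked in both (28 genes), while 0.656% of the genes tested in the first and 0.549% of those tested in the second were marked there. None of the other 8 receptor genes was marked in either of the authors' deposited tables. Cd244 and Klrg1 were tested in neither of them, and Havcr2 was not tested in the second.

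The tested genes on either side of Lag3 had differences near 0. Cd4, the co-receptor gene whose product LAG3 resembles, lies 16149 bp from it and was at 166 and 209 FPKM in the pair labelled MSC KO and 173 and 189 FPKM in WT (0.04 ± 0.10, limma adjusted p = 0.837). Ptms, on the other side at 1969 bp, was at 195 and 238 FPKM in the pair labelled MSC KO and 198 and 205 FPKM in WT (0.10 ± 0.11, adjusted p = 0.643). Per unit of Cd4, Lag3 stood at 0.844 and 0.567 in the pair labelled MSC KO and at 0.201 and 0.191 in WT. Whether the counting used strand is not given in the sources used here, so that reads of overlapping transcripts on opposite strands cannot be told apart.

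Tigit, on chromosome 16 (mm9, 43648235 to 43664297), was at 28.6 and 22.7 FPKM in the pair labelled MSC KO and at 8.06 and 7.77 FPKM in WT. Both values lay above both WT values, by 3.55 times in the first table and 2.92 times in the second. The difference of 1.57 ± 0.11 did not pass (limma, adjusted p = 0.111), and it passed with no table block (0.0381, limma). Lag3 and Tigit were both at least 2-fold higher in both tables, on the log2(FPKM + 1) scale, as were 1.32% of all genes tested, and 0 receptors were at least 2-fold lower in both, as were 0.812%. Ranked from the highest by the smaller of their 2 differences, so that genes higher in MSC KO in both tables come first, Lag3 was number 51 and Tigit number 69 of 10587 genes. By size in either direction, they were number 76 and number 111.

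Cd200, on chromosome 16 (mm9, 45382247 to 45409166), was at 60.9 and 96.9 FPKM in the pair labelled MSC KO and at 39.4 and 37.8 FPKM in WT. MSC KO 1 was 1.55 times its WT partner and MSC KO 2 was 2.56 times its own, so the groups did not overlap but the 2 MSC KO-labelled libraries lay farther from each other than the WT libraries did. The difference of 0.98 ± 0.21 did not pass (limma, adjusted p = 0.176). Its q was 0.999 in the first of the authors' deposited tables and 0.0764 in the second.

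**Figure D2:**
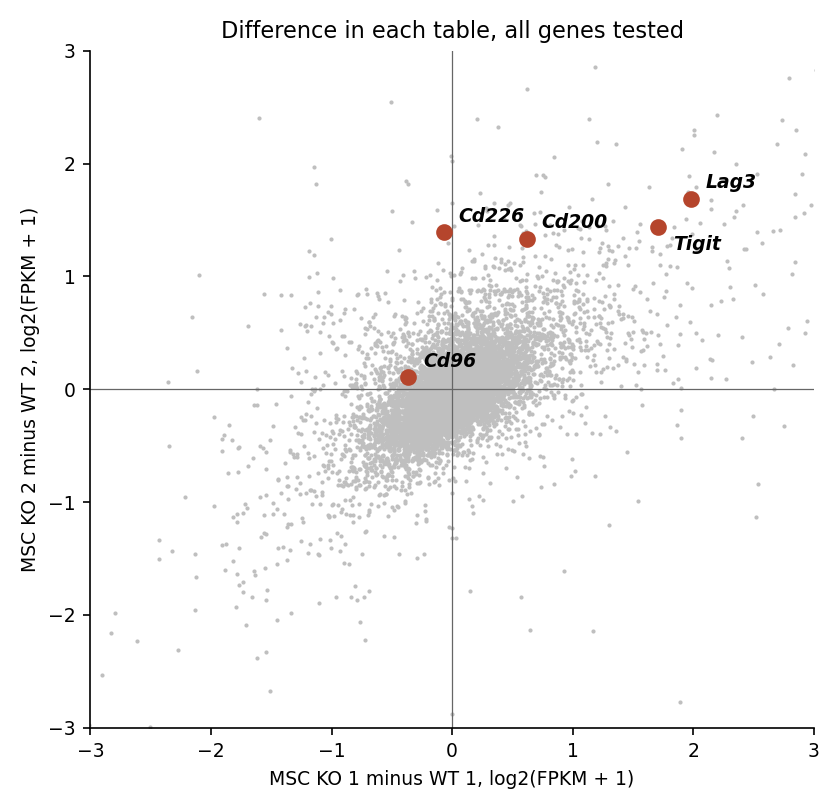
Difference of MSC KO from WT in the second table (y axis) against the first (x axis), log2(FPKM + 1), 1 grey point for each gene tested, with the 5 tested receptors in red; 128 genes lie outside the axes. Lag3 and Tigit lie far out in both tables, Cd226 in the second alone (-0.07 and 1.39), and Cd96 lies near 0.

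Tigit, Cd200 and Cd96 lie within 2.47 Mb of chromosome 16, and their promoters are shown because the first and second were above WT in both MSC KO-labelled libraries and the third was not. These are the 250 bases before each start, 5′ to 3′ on the gene's strand, from RefSeq (GRCm38.p6, a build that differs from the mm9 of the tables), at chr16:43664185-43664434, chr16:45409054-45409303 and chr16:46120249-46120498, all on the minus strand. Capitals mark E-boxes (CANNTG, the same on both strands), the motif class bound by basic helix-loop-helix factors.
Tigit: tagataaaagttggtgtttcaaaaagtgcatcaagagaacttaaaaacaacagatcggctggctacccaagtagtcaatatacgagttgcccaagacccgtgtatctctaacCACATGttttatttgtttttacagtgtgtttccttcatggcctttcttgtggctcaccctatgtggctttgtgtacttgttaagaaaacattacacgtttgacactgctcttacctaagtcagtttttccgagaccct
Cd200: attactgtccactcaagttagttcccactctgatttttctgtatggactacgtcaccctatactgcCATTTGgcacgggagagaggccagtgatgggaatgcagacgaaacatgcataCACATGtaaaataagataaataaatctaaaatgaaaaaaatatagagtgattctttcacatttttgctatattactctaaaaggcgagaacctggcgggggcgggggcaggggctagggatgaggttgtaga
Cd96: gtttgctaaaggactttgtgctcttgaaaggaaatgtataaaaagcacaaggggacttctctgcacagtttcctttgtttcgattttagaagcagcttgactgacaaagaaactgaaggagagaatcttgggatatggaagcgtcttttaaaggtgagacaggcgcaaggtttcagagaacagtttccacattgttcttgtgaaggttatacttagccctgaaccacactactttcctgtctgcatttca
The Tigit window held 1 E-box, with the letters CACATG at 138 bases before the start. In the Cd200 window there were 2, CATTTG at 184 and CACATG at 132 bases, and the Cd96 window held 0. An E-box stood in 66.2% of 32851 RefSeq promoter windows of this length, so its presence sets neither gene apart. The AP-1 motif TGANTCA (the same on both strands), searched because Batf is described below, was in 0 of these 3 windows and in 6.75% of all windows. Of the 9 genes 6 were matched in the promoter table and usable here. Among the other 3 genes matched, TGANTCA stood in the windows of Havcr2 (200 bases before the start) and Cd244 (122 bases). E-boxes stood in the window of Cd244 and in 1 of the 2 windows of Cd160, the other holding 0.

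TIGIT, CD96 and CD226 compete for CD155, and their transcripts did not share 1 pattern. Cd226, the activating member (chromosome 18, mm9, 89366756 to 89441006), stood at 9.27 FPKM in MSC KO 1 and reached 25.5 FPKM in MSC KO 2, while the WT libraries had 9.75 and 9.10 FPKM. MSC KO 2 was thus 2.80 times its WT partner while MSC KO 1 lay between the 2 WT values. The difference of 0.66 ± 0.41 did not pass (limma, adjusted p = 0.432), and in the second of the authors' deposited tables Cd226 was not marked (q = 0.117). Cd8b1, a gene of the CD8 co-receptor, was likewise high in MSC KO 2 alone (8.56 and 19.1 FPKM in the pair labelled MSC KO against 9.75 and 9.75 FPKM in WT). The other CD8 gene, Cd8a, was at 0.571 and 0.658 FPKM there and at 1.58 and 1.90 FPKM in WT. The part of CD8 cells in the Cd226 value was not tested. Cd96 (chromosome 16, mm9, 46035769 to 46120361) was at 21.6 and 32.0 FPKM in the pair labelled MSC KO and 28.1 and 29.7 FPKM in WT, so that the groups overlapped (-0.13 ± 0.16, limma, adjusted p = 0.672).

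Set against each other, a description chosen after these values were seen, Tigit over Cd226 was 3.08 in MSC KO 1 and 0.892 in MSC KO 2, against 0.826 and 0.855 in WT. The inhibitory member thus exceeded the activating one in MSC KO 1 alone. Tigit over Cd96 was 1.32 and 0.709 in the pair labelled MSC KO and 0.287 and 0.261 in WT, with no overlap. Their shared ligand gene Pvr was at 14.7 and 17.7 FPKM in the pair labelled MSC KO and 19.1 and 18.8 FPKM in WT (-0.22 ± 0.12, limma adjusted p = 0.379). Pvrl2, the gene of nectin-2, was at 2.80 and 4.92 FPKM in the pair labelled MSC KO and 5.42 and 5.14 FPKM in WT.

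**Figure D3:**
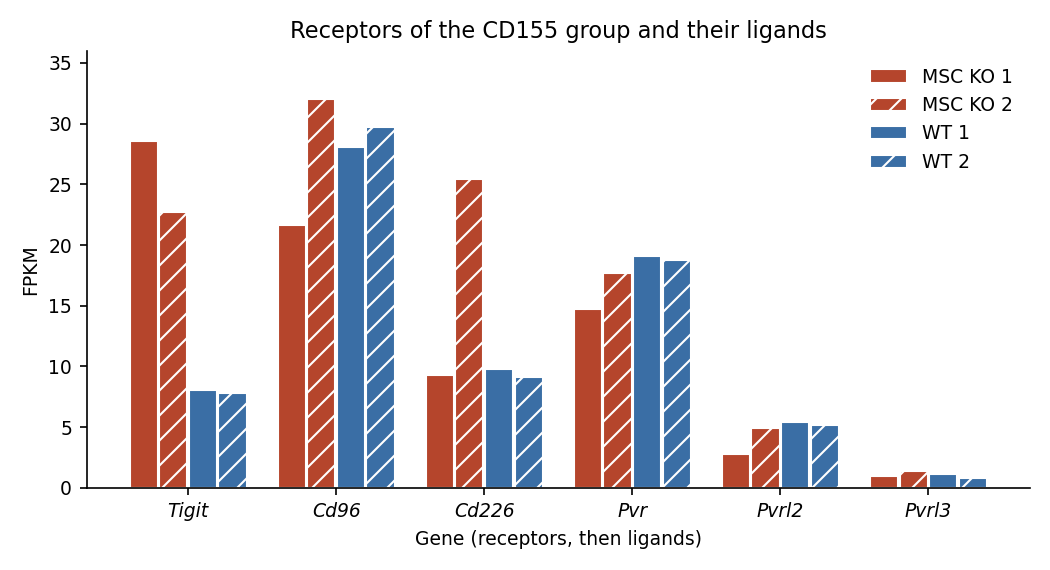
FPKM of Tigit, Cd96 and Cd226 and of their ligand genes Pvr, Pvrl2 and Pvrl3, 1 bar a library with no error bar, MSC KO-labelled libraries left of WT. Tigit is high in both MSC KO-labelled libraries, Cd226 in MSC KO 2 alone, and the ligand genes lie close to WT or below it in MSC KO 1 except for Pvrl3, which is at about 1 FPKM throughout.

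Cd160, the gene of an HVEM receptor on cytotoxic and NK cells (chromosome 3, mm9, 96602685 to 96633274), was at 1.67 and 0.934 FPKM in the pair labelled MSC KO and 0.457 and 0.741 FPKM in WT. The groups did not overlap, and its mean of 0.949 FPKM left it just under the filter. From estimated depth and transcript length these values stand for about 121 and 81.7 fragments in the pair labelled MSC KO and 31.8 and 70.9 in WT. The ratio was 3.62 in the first table, with an exact Clopper-Pearson 95% interval of 2.43 to 5.53, and 1.26 in the second, with one of 0.906 to 1.76. These intervals cover counting error only and take the estimated depth as given. The spread between libraries is not covered by them, and in the authors' deposited tables Cd160 was marked in neither (q = 0.953 and 0.999).

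Havcr2, the gene of TIM3, a receptor of exhausted and Th1 cells (chromosome 11, mm9, 46268432 to 46294756), was at 0.421 and 0.168 FPKM in the pair labelled MSC KO and 0.0477 and 0.0351 FPKM in WT. All 4 values were below 1 FPKM, and the groups did not overlap. They stand for about 32.2 and 15.5 fragments in the pair labelled MSC KO and 3.5 in each WT library. In FPKM, Havcr2 was 8.82 times the WT level in the first table and 4.79 times in the second. From the rounded fragments the ratio was 10.2 in the first table, with a 95% interval of 3.19 to 52.1 made in the same way. It was 4.09 in the second, with one of 1.30 to 16.9. TIM3 transcripts were thus scarce in every library, whatever their ratio. Cd244, on chromosome 1 (mm9, 173489323 to 173515447), was listed at 0 in both MSC KO-labelled libraries and in WT 1, and at 0.0281 FPKM in WT 2. Klrg1, on chromosome 6 (mm9, 122220618 to 122232851), was at 0.0287 FPKM in MSC KO 1, about 1.1 fragments, and listed at 0 in the other 3 libraries. Cd244 and Klrg1 are known chiefly from NK cells and effector CD8 T cells. NK markers, 6 of 8 of which were found, summed to 2.68 and 4.25 FPKM in the pair labelled MSC KO and 1.64 and 1.80 FPKM in WT, most of it Klrk1 (2.17 and 3.59 FPKM in the pair labelled MSC KO, 1.18 and 1.48 FPKM in WT), with Ncr1 listed at 0 in every library.

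The order of the levels differed between the groups. Among the 2 MSC KO-labelled libraries, Lag3 was above Cd200, and below them the ranges of Cd96, Tigit and Cd226 overlapped. In WT the order was Cd200, Lag3, Cd96, Cd226, Tigit, Cd160 and Havcr2, and no neighbours in it overlapped. Tigit stood below Cd226 and Cd96 in MSC KO 2 and in both WT libraries, and above them in MSC KO 1.

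Of the ligands of these receptors 10 of 17 listed genes were tested, of which 1 was higher and 4 were lower in both tables, with a median of 0.09, and by limma 0 passed. Over all genes tested 31.2% were higher and 37.5% lower in both tables. Lgals9, the gene of the TIM3 ligand galectin-9, was at 76.6 and 76.2 FPKM in the pair labelled MSC KO and 124 and 139 FPKM in WT (-0.77 ± 0.10, limma adjusted p = 0.131). Hmgb1, the gene of a nuclear protein that TIM3 also binds, was at 170 and 141 FPKM in the pair labelled MSC KO and 210 and 214 FPKM in WT. H2-Ab1, a chain of the MHC class II molecules that LAG3 binds, was at 83.2 and 51.0 FPKM in the pair labelled MSC KO and 32.5 and 33.4 FPKM in WT (0.96 ± 0.22, adjusted p = 0.18). Its partner chain H2-Aa was at 3.79 and 1.17 FPKM there and 1.40 and 2.34 FPKM in WT, with overlap. B cell markers, a possible other source of MHC class II, summed to 6.17 and 5.07 FPKM in the pair labelled MSC KO and 7.38 and 7.12 FPKM in WT, mostly Cd79b, and their part was not tested. The gene of the CD200 receptor, Cd200r1, was at 1.58 FPKM in MSC KO 1 and between 0.0600 and 0.165 FPKM in the other 3 libraries. Cd48, which 2B4 binds, was at 62.8 and 53.3 FPKM in the pair labelled MSC KO and 47.3 and 53.6 FPKM in WT.

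Among CD28 family and other co-inhibitory receptors, 13 of 22 listed genes were tested; 5 were higher and 3 lower in both tables, and by limma 0 passed (median 0.11). Pdpn, podoplanin, a glycoprotein that restrains T cells, was at 55.9 and 67.4 FPKM in the pair labelled MSC KO and 14.2 and 14.7 FPKM in WT (2.02 ± 0.11, adjusted p = 0.1, limma). Btla, the gene of another HVEM receptor, was at 28.2 and 44.8 FPKM there and 13.9 and 14.0 FPKM in WT. Nt5e, the ectoenzyme CD73 that makes adenosine, was at 10.7 and 7.86 FPKM in the pair labelled MSC KO against 17.6 and 16.9 FPKM in WT. Ctla4, the CD28 relative that competes for B7 ligands, was at 217 and 188 FPKM in the pair labelled MSC KO and 112 and 120 FPKM in WT (0.80 ± 0.12, adjusted p = 0.142, limma), with no overlap. Of the SLAM family, to which 2B4 belongs, 7 of 8 genes were tested, with 2 higher and 2 lower in both tables, a median of 0.03 and 0 passing by limma. Slamf7, an activating or inhibitory receptor depending on the cell, was at 17.6 and 8.66 FPKM in the pair labelled MSC KO and 1.58 and 1.92 FPKM in WT (2.29 ± 0.32, adjusted p = 0.14). Its relative Slamf9 was at 0.131 and 0.386 FPKM there and 2.90 and 3.31 FPKM in WT. Slamf1 was at 15.3 and 11.3 FPKM in the pair labelled MSC KO and 6.63 and 6.68 FPKM in WT, and Slamf6 was at 4.55 and 7.14 FPKM there and 7.84 and 7.61 FPKM in WT.

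Of the signalling partners of the receptors, 19 were tested: 1 was higher and 12 lower in both tables (median -0.14, 0 passing by limma). The gene that was higher was Sh2d1a, the gene of SAP, the adaptor of SLAM receptors (266 and 373 FPKM in the pair labelled MSC KO, 209 and 204 FPKM in WT). Rasa1, a GTPase-activating protein that turns off Ras, was at 11.5 and 13.1 FPKM in the pair labelled MSC KO and 21.6 and 22.3 FPKM in WT, and the Src family kinase gene Fyn was at 51.7 and 64.5 FPKM there and 71.6 and 79.0 FPKM in WT. Adam10, a protease that sheds LAG3 from the cell surface, was at 25.5 and 22.7 FPKM in the pair labelled MSC KO and 33.7 and 34.7 FPKM in WT (-0.49 ± 0.10, limma adjusted p = 0.175). Transcription factors linked to inhibitory receptors numbered 24 tested, of which 15 were higher and 5 lower in both tables (median 0.22, 0 passing by limma). Irf4 and Batf, which act together at AP-1 composite sites, were higher in both. Irf4 was at 166 and 160 FPKM in the pair labelled MSC KO and 63.1 and 65.9 FPKM in WT (1.32 ± 0.09, limma adjusted p = 0.111), and Batf at 188 and 81.0 FPKM there and 25.2 and 27.5 FPKM in WT. Eomes, a T-box factor linked to inhibitory receptors in CD8 and type 1 regulatory T cells, was at 0.322 and 0.585 FPKM in the pair labelled MSC KO and 4.81 and 5.16 FPKM in WT.

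Of the inducing cytokine pathway 17 of 18 genes were tested; 7 were higher and 6 lower in both tables, and by limma 0 passed (median 0.11). Il10 was at 39.6 and 10.1 FPKM in the pair labelled MSC KO and 0.478 and 0.468 FPKM in WT (3.85 ± 0.52, adjusted p = 0.14), and its receptor gene Il10ra at 18.6 and 18.2 FPKM there and 8.70 and 8.19 FPKM in WT. Il12rb2, a chain of the interleukin-12 receptor, was at 59.9 and 50.1 FPKM in the pair labelled MSC KO and 12.7 and 15.9 FPKM in WT. Il21 had 21.0 FPKM in MSC KO 1 and only 1.32 FPKM in MSC KO 2, with WT 1 at 0.186 FPKM and WT 2 at 0.138 FPKM. Il27ra, the receptor of interleukin-27, a cytokine that induces Lag3, Tigit and Havcr2, was at 25.6 and 22.0 FPKM in the pair labelled MSC KO and 24.0 and 23.8 FPKM in WT (-0.01 ± 0.10, adjusted p = 0.962, limma).

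**Figure D4:**
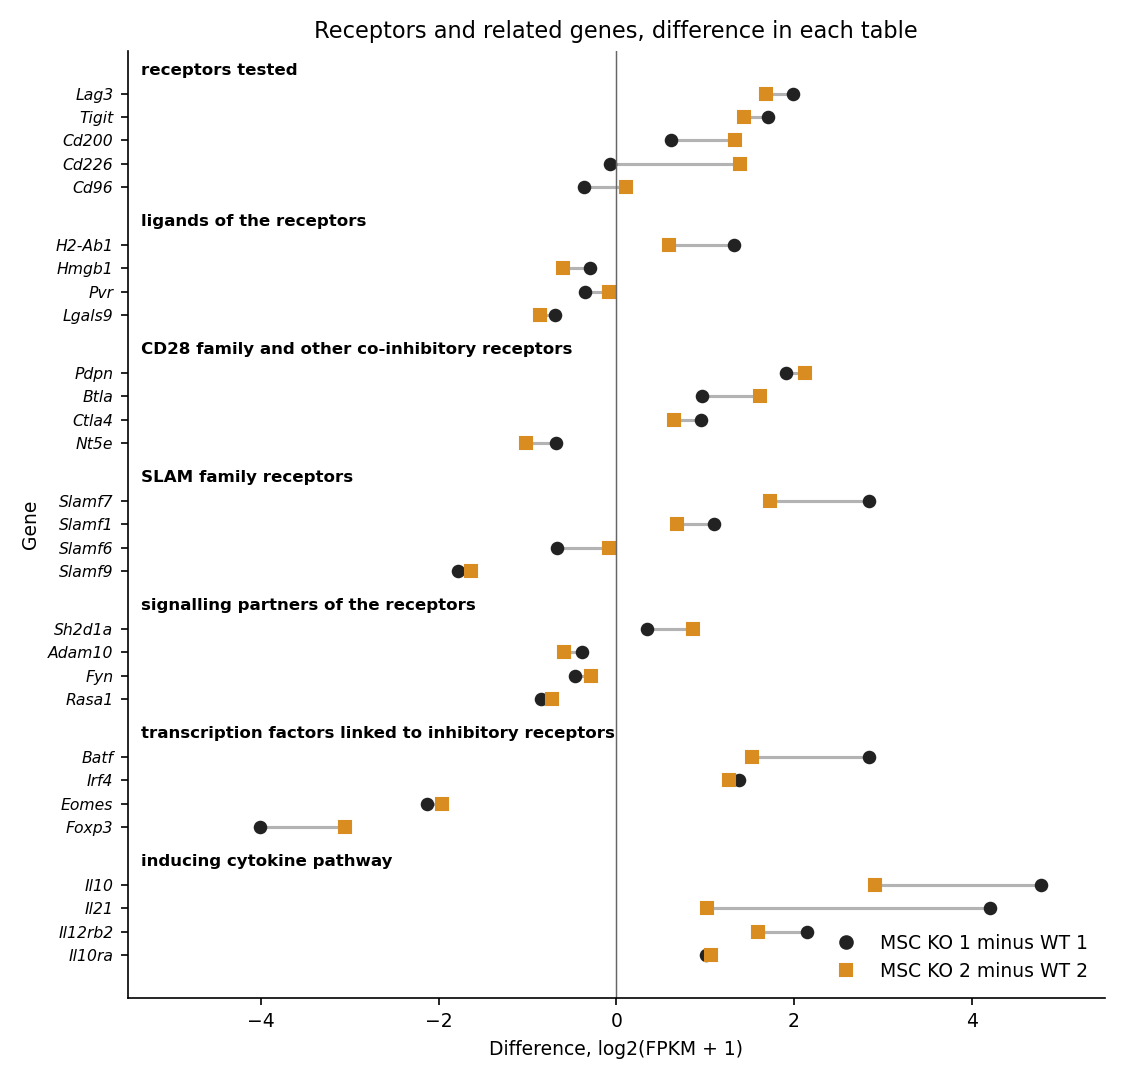
Difference of MSC KO from WT on the log2(FPKM + 1) scale for the 5 tested receptors and for up to 4 genes of each related list, circles for the first table and squares for the second, joined by a line. Irf4 and Il10ra sit at nearly the same difference in both tables, whereas Cd226 and Il21 differ widely between them.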

How the data were processed

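Gene-level tables of 2 MSC KO-labelled and 2 WT libraries were used. TopHat and the build mm9 are named per the submitters' processing notes, with no version, annotation or normalization given in the sources used here. The values the authors deposited were taken as FPKM because the columns are laid out that way, and each table also holds the authors' p-value and q-value per gene, from 1 library against 1. Rows without a symbol (1925 and 2325), symbols that read as dates (24 a table) and symbols with a failed estimate (6) or loci that did not overlap (3) were left out, and a repeated symbol kept its row of highest mean.

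Values were compared as log2(FPKM + 1), which understates the fold of low genes, by limma (version 3.58.1, under R 4.3.3), the table being a block, with a trended prior variance and Benjamini-Hochberg adjustment over all 10587 genes with a mean of at least 1 FPKM (two-sided, threshold 0.05). The script was tested on simulated data. The tables give no counts; fragments were estimated as the depth that best turned low values of genes with 1 protein-coding transcript over 2500 bp into whole fragments, lengths being those of GENCODE M21 transcripts of the same gene name; the fit was loose (mean cosine 0.218 to 0.31, where 1 is whole fragments throughout), so they are approximate. Python 3.11.15 with pandas 2.3.3 and scipy 1.17.1 was used.

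The members, lists and tests were chosen with earlier results of these data known. Named are all 9 receptors, Msc, Foxp3, up to 4 genes of each list, ranked by the smaller of their 2 differences, and the 3 genes most like Lag3, Tigit and Havcr2; other genes were named after their values were seen, and 1 gene that the rule takes is not reported here. Of the listed genes, 7 had no matching symbol and were not analysed here. Alternatives changed the pseudocount, filter, scaling, prior, block, genes entering the fit and libraries.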

Additional observations from a re-analysis of the deposited data

How the results depend on the processing

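Over the 11 alternatives that kept all libraries, the difference ran from 1.80 to 1.86 for Lag3, 1.53 to 1.67 for Tigit, 0.93 to 0.99 for Cd200, 0.62 to 0.70 for Cd226 and -0.17 to -0.11 for Cd96, with adjusted p from 0.0278 to 0.207 for Lag3 and from 0.0381 to 0.207 for Tigit. All genes called numbered 0 with no filter on low values, 0 with quantile normalization, 0 with a prior without trend, 3 at a mean of at least 5 FPKM, 7 with libraries rescaled to the same sum, 26 with small RNA symbols left out (1 receptor, Lag3) and 153 with no replicate block (2 receptors, Lag3 and Tigit). Leaving out 1 library, in a fit with no block in which the lone library is taken to vary like the other group, gave 0 to 2665 genes and 0 to 4 receptors. The high ends of both ranges came from fits without an MSC KO-labelled library, where the spread comes from the WT pair alone. Because many of all genes tested passed there, the receptor count sets no receptor apart. In fits without a WT library the spread comes from the MSC KO-labelled pair. Over these fits Cd96 ran from -0.40 without MSC KO 2 to 0.14 without MSC KO 1, and Cd226 from -0.02 without MSC KO 2 to 1.34 without MSC KO 1. The cause was not tested. The replicate number pairs libraries by table only: deviations of same-numbered libraries had a correlation of 0.06 over genes.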

Other observations

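Among the genes whose 4 values, on the log2(FPKM + 1) scale and centred on their own mean, lay closest to those of Lag3 were Slc15a3 (Euclidean distance 0.0704 over 4 libraries), a lysosomal peptide transporter, and Akr1b8 (0.158), an aldo-keto reductase. Slc15a3 was at 35.6 and 32.1 FPKM in the pair labelled MSC KO and 8.42 and 8.87 FPKM in WT, which is about the fold of Lag3 at a lower level. Closest to Tigit were Adarb1 (0.117), an RNA-editing adenosine deaminase, Stx11 (0.129), a syntaxin of cytotoxic granule release, and Siah3 (0.131). Stx11 was at 64.9 and 50.1 FPKM in the pair labelled MSC KO and 19.8 and 20.4 FPKM in WT. For Havcr2, whose low values the added 1 FPKM compresses, the closest were Tbrg4, Sra1 and Ubtd1, all with differences of 0.30 to 0.32. These are descriptions of 4 libraries.

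Of the tested genes nearest to each tested receptor, Btla lies 129239 bp from Cd200 and was higher in both MSC KO-labelled libraries, by 2.02 and 3.21 times, beside 1.55 and 2.56 times for Cd200. In both genes MSC KO 2 had the higher level of the 2. On the other side of Cd200, Abhd10 was at 6.52 and 8.27 FPKM in the pair labelled MSC KO and 9.52 and 8.67 FPKM in WT. Qtrtd1, at 197228 bp the closer of the neighbours of Tigit, was at 5.71 and 6.06 FPKM in the pair labelled MSC KO and 4.36 and 4.94 FPKM in WT, with no overlap. Gap43, the nearest tested gene on the other side of Tigit, at 1307471 bp, was at 0.0710 and 0.413 FPKM in the pair labelled MSC KO and 2.78 and 3.06 FPKM in WT. The neighbours of Cd226, Rttn (3.22 and 3.17 FPKM against 3.65 and 3.57 FPKM in WT) and Tmx3 (22.6 and 20.2 FPKM against 18.8 and 17.7 FPKM), were not high in MSC KO 2 alone as Cd226 was. Plcxd2, 25243 bp from Cd96, was at 3.75 and 4.21 FPKM in the pair labelled MSC KO and 3.88 and 4.12 FPKM in WT. Pvrl3, on the other side of Cd96 at 274609 bp, was at 0.943 and 1.36 FPKM in the pair labelled MSC KO and 1.10 and 0.837 FPKM in WT, with overlap.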
